A study of Rattus norvegicus with 8 samples.

Results

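The proteasome is the large protease that degrades ubiquitin-tagged proteins, and its subunit genes were read here in rat lung after injurious ventilation. A 20S core of stacked alpha and beta rings holds the proteolytic sites, a 19S cap of ATPases and non-ATPase subunits recognises and unfolds the substrate, and alternative activators can take the place of that cap. Interferon-gamma is known to exchange the catalytic beta subunits for Psmb8, Psmb9 and Psmb10, which form the immunoproteasome and shape peptides for MHC class I. Immune cells carry immunoproteasomes without that stimulus, and lung tissue holds such cells.

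Genes were taken by symbol, as the proteasome (Psm) genes of the alpha, beta, ATPase, non-ATPase, activator, inhibitor and chaperone series with a probe set of that symbol alone, and where a gene had several such probe sets the brightest on average over the arrays stood for it. The rule found 46 of the 11217 genes with such a probe set. All 46 were among the 10240 that passed the filter on low values, a log2 value of 5 or more on at least 2 arrays. They comprised 41 subunits, activators and chaperones, called constitutive here although they include the interferon-inducible Psme1 and Psme2, and the 3 immunoproteasome catalytic subunits. The other 2 share only the name: Psmc3ip is a recombination factor and Psme3ip1 a protein that binds an activator, and both are kept apart. Psmb6, the counterpart of Psmb9, and the activator gene Psme3 have no value here, because their probe sets carry several symbols.

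The samples came from the dorsal-caudal lung of male Sprague-Dawley rats of 340 to 400 g, all anesthetized under the stated protocol. The controls were 2 rats that were not ventilated, and 3 rats were ventilated prone and 3 supine at a high tidal volume of 18 mL/kg, 40 breaths per minute and an end-expiratory pressure of 0 cmH2O, for up to 3 h. By their titles the 8 samples are biological replicates. Titles of the supine samples read SVt where the prone ones read HVt. The design text gives high tidal volume for both, and it was followed. The series title concerns MAP kinase phosphatase-1 and regional effects of ventilation, so the arrays bear on what ventilation and posture changed in this region.

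Values are log2 GCRMA summaries, with array medians between 7.77 and 7.95. Surfactant protein C (Sftpc), which marks alveolar type 2 cells, read between 15.02 and 15.51 on all 8. The excess of 3′ over 5′ probe sets, which grows as RNA breaks down, was largest on supine replicate 3, at 9.10 for actin and 8.41 for GAPDH on the log2 scale, against 3.16 to 4.64 and 0.70 to 1.92 on the other arrays. It also differed between replicates 1 and 2 of each group: for actin 4.06 and 3.31 in controls, 3.52 and 3.21 in prone and 4.64 and 3.16 in supine, and for GAPDH 1.06 and 0.70, 1.17 and 0.70, and 1.92 and 0.75. Cardiac muscle markers stood at a median of 5.86 above the control mean on prone replicate 2 and 5.01 on supine replicate 3, and between -0.05 and 0.47 on the other ventilated arrays. The part of either in the results that follow was not tested beyond the refits that leave arrays out. In this bulk tissue, fewer cells of a type and less RNA per cell cannot be told apart.

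No proteasome gene passed the test in any comparison, and the values instead divided the ventilated lungs by replicate. On replicate 1 of both positions the immunoproteasome genes, the interferon-responsive activator gene Psme2 and most subunits stood at or above the controls. On replicates 2 and 3 of both positions the immunoproteasome genes stood far below them. The 3 immunoproteasome genes had medians of 0.76 above the control mean on prone replicate 1 and 0.62 on supine replicate 1. Their medians were -1.61 and -1.58 on prone replicates 2 and 3, and -1.30 and -1.61 on supine replicates 2 and 3. The 41 constitutive genes were divided the same way over a narrower range, with medians of 0.34 and 0.32 on both replicates numbered 1 and between -0.32 and -0.21 on the other 4 ventilated arrays. Over all 10240 tested genes the medians of the ventilated arrays ran from -0.19 to 0.05. Replicates numbered 1 also had a larger 3′ excess than those numbered 2, as given above, and its part in this split was not tested.

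**Figure D1:**
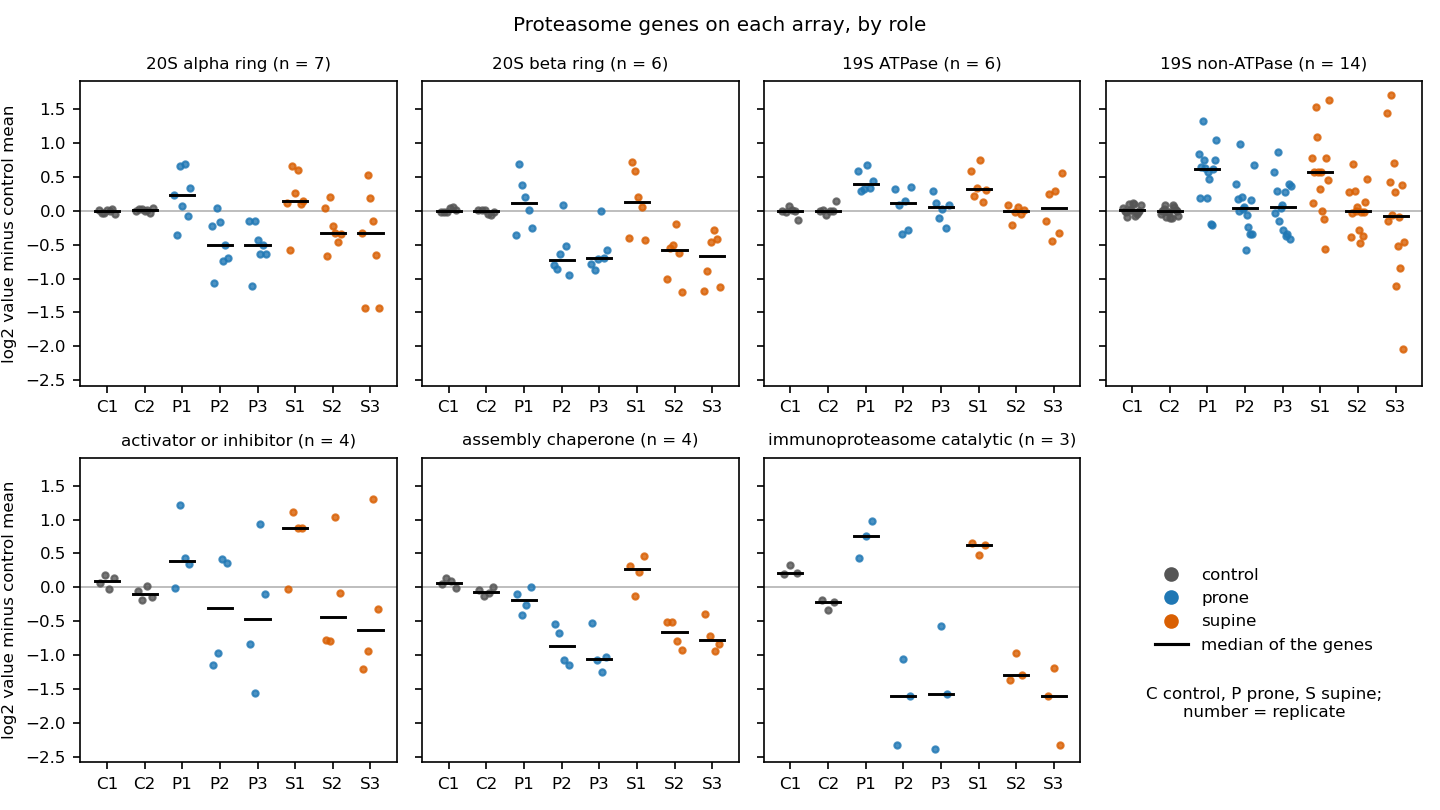
Each point is 1 gene's log2 value minus its mean in the 2 control lungs, on each of the 8 arrays (C control, P prone, S supine, with the replicate number), in 1 panel per role; black bars are medians over the genes. The immunoproteasome panel shows medians of 0.76 and 0.62 on P1 and S1 and between -1.61 and -1.30 on the other 4 ventilated arrays.

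The promoters of the immunoproteasome genes and of Psme2 are shown because these genes varied together between arrays and are known interferon-gamma targets. The windows are the 250 bases before the gene's start in RefSeq's annotation of the rat GRCr8 assembly, printed in the direction of the gene. They lie at chr20:4657032-4657281 (minus strand) for Psmb8, chr20:4668750-4668999 (plus strand) for Psmb9, chr19:50743293-50743542 (minus strand) for Psmb10 and chr15:33052752-33053001 (minus strand) for Psme2. Capitals mark matches, on either strand, to 5 motifs searched: the interferon-stimulated response element as a GAAA repeat with 2 free bases between, the gamma-activated site as TTCNNNGAA, the CCAAT box, the heat shock element as GAANNTTC and the antioxidant response element as TGACNNNGC.
Psmb8: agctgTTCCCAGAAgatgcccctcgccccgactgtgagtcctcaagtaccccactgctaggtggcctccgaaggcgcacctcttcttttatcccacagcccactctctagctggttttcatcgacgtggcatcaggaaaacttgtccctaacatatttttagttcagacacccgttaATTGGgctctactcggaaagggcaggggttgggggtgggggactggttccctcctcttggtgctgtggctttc
Psmb9: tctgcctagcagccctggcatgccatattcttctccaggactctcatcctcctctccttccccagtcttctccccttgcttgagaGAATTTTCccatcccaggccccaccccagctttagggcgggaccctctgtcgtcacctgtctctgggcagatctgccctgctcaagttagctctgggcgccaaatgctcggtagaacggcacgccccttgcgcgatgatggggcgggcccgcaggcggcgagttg
Psmb10: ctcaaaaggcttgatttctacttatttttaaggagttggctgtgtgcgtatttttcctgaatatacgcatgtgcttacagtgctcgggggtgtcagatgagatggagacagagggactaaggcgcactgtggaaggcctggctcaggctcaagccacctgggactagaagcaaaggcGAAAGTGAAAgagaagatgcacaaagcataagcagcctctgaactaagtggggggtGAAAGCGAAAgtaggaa
Psme2: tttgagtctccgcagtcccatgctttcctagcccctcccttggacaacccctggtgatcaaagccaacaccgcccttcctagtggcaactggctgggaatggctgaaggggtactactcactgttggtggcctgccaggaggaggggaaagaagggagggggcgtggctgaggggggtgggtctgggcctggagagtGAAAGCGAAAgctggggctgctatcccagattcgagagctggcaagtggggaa
The Psmb10 window holds the interferon-stimulated letters at positions -73 to -64 and again at -17 to -8, counted back from the start, and the Psme2 window at -53 to -44. In Psmb8 the capitals are the gamma-activated letters at -245 to -237 and a CCAAT box on the opposite strand at -73 to -69. In Psmb9 they are the heat shock letters at -165 to -158. Psmb9 starts 457 bases from Tap1, the peptide transporter gene, and the pair is read in opposite directions.

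Among the 40 subunit, activator and chaperone genes with a promoter in the table, the interferon-stimulated letters were found in 5 (12.5%: Psma4, Psmb3, Psmb10, Psmd7 and Psme2), against 3.41% of all 33469 promoters. The CCAAT box was found in 19 (47.5%), against 34%. Shares for the other motifs were 10% against 7.67% for the gamma-activated site, 7.5% against 7.23% for the heat shock element and 15% against 10.1% for the antioxidant response element. The last, the site of NRF-type factors that are known to drive proteasome genes, was found in 6 genes (Psma3, Psmb2, Psmb5, Psmd1, Psmd9 and Psme4). These matches describe letters only, and no binding was measured. Psmd6, Psmd12, Psmd14 and Psma7 are not in the table.

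Psmb8, the chymotrypsin-like immunoproteasome subunit, had log2 values of 11.30 and 10.63 in the controls, 11.72, 9.91 and 10.39 in prone replicates 1 to 3, and 11.44, 9.99 and 9.77 in supine replicates 1 to 3. Replicate 1 of each position lay above both controls and the other 4 ventilated lungs lay below both, so every group overlapped the controls. The differences were -0.29 ± 0.68 in prone (adjusted p = 0.857), -0.56 ± 0.68 in supine (adjusted p = 0.693) and -0.43 ± 0.61 over both (adjusted p = 0.727), on the log2 scale with the model's standard error. Supine stood at -0.27 ± 0.61 against prone (adjusted p = 0.972).

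Psmb9, the immunoproteasome counterpart of the caspase-like subunit, read 12.20 and 11.77 in the controls, 12.96, 10.38 and 10.40 in prone, and 12.61, 10.69 and 9.65 in supine lungs, in replicate order. The same lungs were high as for Psmb8, and the 4 low lungs lay more than 1 log2 unit under the lower control. The group differences of -0.74 ± 1.03 in prone, -1.0 ± 1.03 in supine and -0.87 ± 0.92 over both were smaller than the spread within the ventilated groups (SD 1.49 in prone and 1.5 in supine, n = 3 each). Their adjusted p-values were 0.747, 0.642 and 0.629, and that of supine against prone (-0.27 ± 0.92) was 0.979.

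Psmb10, the trypsin-like immunoproteasome subunit, read 10.46 and 10.08 in the controls, 10.70, 7.93 and 7.89 in prone, and 10.92, 8.89 and 8.66 in supine lungs. It stood above the controls on replicate 1 of each position and more than 2 log2 units below them on prone replicates 2 and 3. The differences were -1.43 ± 0.99 in prone (adjusted p = 0.495), -0.78 ± 0.99 in supine (adjusted p = 0.712) and -1.10 ± 0.89 over both (adjusted p = 0.519). Against prone, supine stood at 0.65 ± 0.89 (adjusted p = 0.952).

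All of the 3 immunoproteasome genes had group means below the controls in both positions, and this also held with arrays centred on their medians and after quantile normalization. With the replicate number as a block the differences kept that sign but shrank, to -0.06 in prone and -0.34 in supine for Psmb8, -0.19 and -0.46 for Psmb9, and -0.98 and -0.33 for Psmb10. The signs of the single genes were less stable: Psmb8 in prone lungs turned to 0.05 without control replicate 1 and to 0.09 without prone replicate 2. Within replicate numbers, the median of the 3 genes was 0.42 in prone 1 minus control 1 and 0.41 in supine 1 minus control 1, but -1.39 in prone 2 minus control 2 and -1.08 in supine 2 minus control 2.

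Leaving out prone 1 and supine 1, a choice made after their values were seen, brought Psmb10 past the threshold in prone (-2.36 ± 0.26, adjusted p = 0.0258) and over both positions (-1.93 ± 0.23, adjusted p = 0.0377). Leaving out supine 3 as well also brought in Psmb9, at -1.59 ± 0.22 in prone (adjusted p = 0.0188) and -1.45 ± 0.21 over both (adjusted p = 0.0342). Over all alternatives the adjusted p of Psmb10 ran from 0.0116 to 0.871 in prone and from 0.0257 to 0.876 over both, and that of Psmb9 from 0.0188 to 0.957 and from 0.0342 to 0.917. These refits lower the spread within groups by their construction, the last leaves 1 supine array whose spread is assumed to be like the others', and it called 4324 of the 16896 probe sets in prone and 2023 over both.

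**Figure D2:**
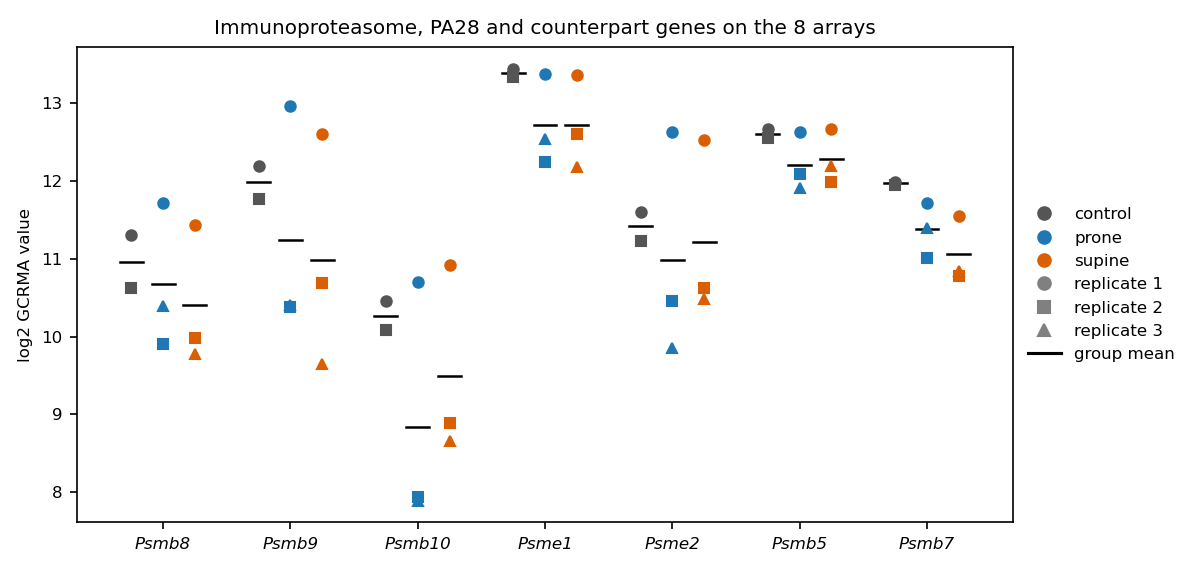
Log2 GCRMA values of the immunoproteasome genes, the PA28 genes Psme1 and Psme2 and the counterparts Psmb5 and Psmb7 on the 8 arrays, coloured by group, with a marker per replicate number and a bar at each group mean. For Psmb10 the replicates numbered 1 lie at 10.70 and 10.92 and the other 4 ventilated lungs between 7.89 and 8.89.

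The constitutive catalytic subunits that these genes replace stayed within a smaller range. Psmb5, the chymotrypsin-like subunit replaced by Psmb8, read 12.66 and 12.55 in controls, 12.63, 12.09 and 11.92 in prone, and 12.67, 11.98 and 12.19 in supine lungs. Replicate 1 of both positions sat with the controls and the other 4 were lower, with differences of -0.40 ± 0.34 in prone (adjusted p = 0.587) and -0.33 ± 0.34 in supine (adjusted p = 0.652). Psmb7, the trypsin-like subunit replaced by Psmb10, read 11.99 and 11.95 in controls, 11.72, 11.02 and 11.40 in prone, and 11.54, 10.78 and 10.85 in supine lungs. Every ventilated lung lay below both controls for Psmb7, replicates 1 included, and yet the differences of -0.59 ± 0.36 in prone (adjusted p = 0.433) and -0.91 ± 0.36 in supine (adjusted p = 0.300) did not pass.

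With each gene first set to its control mean, Psmb10 minus Psmb7 stood at 0.68 on prone 1 and 1.07 on supine 1. It was -1.38 and -1.81 on prone 2 and 3, and -0.18 and -0.49 on supine 2 and 3. The balance between the trypsin-like subunit and its immunoproteasome form thus differed in sign between ventilated lungs, with values of 0.17 and -0.17 in the controls. Psmb8 minus Psmb5 ran from -0.77 on supine 3 to 0.74 on prone 1. These balances are descriptions and were not tested.

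The other beta ring genes, which are structural, also lay mostly below the controls. Psmb1 read 12.85 and 12.89 in controls, 12.51, 12.07 and 12.09 in prone, and 12.47, 11.87 and 11.69 in supine lungs, and its groups did not overlap. The differences were -0.65 ± 0.33 in prone and -0.86 ± 0.33 in supine, the latter with an adjusted p of 0.300. Psmb2 stood at -0.35 in prone and -0.24 in supine, Psmb3 at -0.32 and -0.12, and Psmb4 at 0.10 and -0.09. Over the 6 beta ring genes the median was -0.37 in prone and -0.28 in supine, negative under both other scalings too.

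The alpha ring, which forms the gate of the core, had a median over its 7 genes of -0.23 in prone lungs. In supine lungs it was -0.06, and its sign there turned when arrays were centred (0.02) or quantile normalized (0.01). Psma2 stood lowest: it read 12.23 and 12.29 in controls, 11.90, 11.19 and 11.14 in prone, and 11.68, 11.58 and 10.81 in supine lungs. No ventilated lung reached the controls for Psma2, with differences of -0.85 ± 0.39 in prone (adjusted p = 0.308) and -0.90 ± 0.39 in supine (adjusted p = 0.330). Psma6 stood at -0.36 and -0.34, Psma7 at -0.33 and -0.54, Psma5 at -0.23 and 0.04, Psma4 at -0.18 and 0.08, Psma1 at -0.05 and -0.06, and Psma3 at 0.19 and 0.47, in prone and in supine.

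The 19S cap lay on the other side of the controls by group means. Its 6 ATPases, the motor that unfolds substrates, had medians of 0.22 in prone and 0.13 in supine lungs, and its 14 non-ATPase genes 0.23 and 0.27, above 0 under every scaling used. The 14 were grouped by symbol and include Psmd5, Psmd9 and Psmd10, which are chaperones of base assembly. All 6 ATPases exceeded the control mean on prone 1 and on supine 1, against 4, 4, 3 and 3 of 6 on prone 2, prone 3, supine 2 and supine 3. For the 14 non-ATPase genes the medians were 0.62 and 0.58 on prone 1 and supine 1, 0.04 and 0.06 on prone 2 and 3, and -0.01 and -0.08 on supine 2 and 3, where 6 of 14 exceeded the control mean. Among the ATPases Psmc1 stood at 0.40 in prone and 0.17 in supine, Psmc6 at 0.30 and 0.30, Psmc4 at 0.28 and 0.37, Psmc2 at 0.16 and 0.09, Psmc3 at -0.04 and -0.04, and Psmc5 at -0.07 and -0.08. A further pair of probe sets for Psmc6 gave -0.41 and 0.15 in prone and 0.02 and 0.20 in supine.

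Psmd12, a subunit of the 19S lid, had the largest positive difference of all the genes. It read 10.01 and 10.19 in controls, 11.43, 11.08 and 10.97 in prone, and 11.64, 10.80 and 11.81 in supine lungs. Every ventilated lung exceeded both controls, those numbered 2 and 3 included. The differences were 1.06 ± 0.37 in prone (unadjusted p = 0.0232, adjusted p = 0.211), 1.31 ± 0.37 in supine (unadjusted p = 0.00865, adjusted p = 0.230) and 1.19 ± 0.33 over both (unadjusted p = 0.00823, adjusted p = 0.142). Across the alternatives the adjusted p ran from 0.0332 to 0.759 in prone, from 0.0617 to 0.893 in supine and from 0.0519 to 0.728 over both. The lowest prone value, the only one under the threshold, came with prone 1, supine 1 and supine 3 left out.

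Psmd1, the large scaffold of the 19S base, read 9.61 and 9.52 in controls, 10.40, 9.96 and 10.13 in prone, and 10.34, 9.85 and 11.01 in supine lungs. It too was higher in every ventilated lung than in either control, at 0.60 ± 0.38 in prone (adjusted p = 0.459) and 0.84 ± 0.38 in supine (adjusted p = 0.349). Psmd9, a chaperone of base assembly, read 8.01 and 7.85 in controls, 8.98, 8.61 and 8.30 in prone, and 9.57, 8.40 and 7.48 in supine lungs. Its prone values did not overlap the controls (0.70 ± 0.57, adjusted p = 0.565), while supine 3 lay below both. In the limma fit with the replicate number as a block, Psmd9 stood at 1.03 ± 0.42 in prone (unadjusted p = 0.0480, adjusted p = 0.267). In supine that fit gave 0.89 ± 0.42 (adjusted p = 0.334).

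Stretches of 60 bases around the antioxidant response letters are shown for Psme4 and Psmd1, as the genes with that match among those with the largest positive differences besides Psmd9. They lie at chr14:108706558-108706617 and chr9:94157776-94157835, both on the plus strand of GRCr8. In Psme4 the letters run on the opposite strand, so their reverse complement is printed. The first capitals in Psmd1 are heat shock letters.
Psme4: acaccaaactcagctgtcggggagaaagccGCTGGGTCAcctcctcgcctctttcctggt
Psmd1: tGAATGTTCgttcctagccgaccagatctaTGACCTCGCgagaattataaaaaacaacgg
The antioxidant match in Psme4 covers positions -55 to -47 and that in Psmd1 positions -165 to -157 from the start. The heat shock letters in Psmd1 lie at -194 to -187.

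The other non-ATPase genes differed less from the controls. Psmd6, a lid subunit, was the only one of these 14 whose 6 ventilated values all lay below both controls, at -0.29 ± 0.27 in prone and -0.59 ± 0.27 in supine (adjusted p = 0.611 and 0.350). The ubiquitin receptor gene Psmd4 stood at 0.23 in prone and -0.33 in supine, and the deubiquitinase gene Psmd14 at 0.23 and 0.42. Psmd7 stood at 0.39 and 0.38, Psmd11 at 0.31 and 0.32, Psmd13 at 0.27 and 0.44, Psmd2 at 0.11 and 0.22, and Psmd3 at -0.10 and -0.27.

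The base chaperones Psmd10 and Psmd5 stood at 0.11 and -0.27 in prone and -0.14 and -0.08 in supine. Psmd8 stood at -0.01 in prone and -0.49 in supine, where supine 3 alone, the array with the large 3′ excess, read 8.84 against 10.46 to 11.63 on the other 7 arrays. Of the other probe sets, those of Psmd14 gave -0.48 and 0.36 in prone and -0.84 and -0.01 in supine, that of Psmd11 gave 0.60 and 0.38, with every ventilated lung above both controls, and that of Psmd7 gave 0.19 and -0.07.

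The activators that replace the cap did not share a direction by group means. Psme1 encodes the alpha and Psme2 the beta subunit of PA28, an interferon-inducible activator used with the immunoproteasome. Psme1 read 13.45 and 13.33 in controls, 13.38, 12.25 and 12.55 in prone, and 13.37, 12.61 and 12.18 in supine lungs. Replicate 1 of each position was at the control level and the other 4 were lower, with differences of -0.67 ± 0.47 in prone (adjusted p = 0.498) and -0.67 ± 0.47 in supine (adjusted p = 0.50). Psme2 read 11.61 and 11.23 in controls, 12.63, 10.46 and 9.85 in prone, and 12.53, 10.63 and 10.48 in supine lungs. Its replicates numbered 1 stood about 1 log2 unit above the controls and the other ventilated lungs below both, so the differences were small beside their errors (-0.44 ± 0.91 and -0.21 ± 0.91, adjusted p = 0.839 and 0.921). With the replicate block its sign turned, to 0.03 in prone and 0.26 in supine.

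Psme4 encodes PA200, a nuclear activator known for histone degradation. It read 10.32 and 10.37 in controls, 10.78, 10.76 and 11.28 in prone, and 11.22, 11.39 and 11.65 in supine lungs. All 6 ventilated lungs exceeded both controls, by 0.60 ± 0.30 in prone (adjusted p = 0.351), 1.07 ± 0.30 in supine (unadjusted p = 0.00796, adjusted p = 0.230) and 0.83 ± 0.27 over both (adjusted p = 0.172). The other probe sets of Psme4 gave -0.12 and 0.68 in prone and 0.09 and -0.08 in supine, so its high supine mean was seen on the brightest probe set alone. Psmf1, the inhibitor PI31, stood at 0.20 in prone and 0.16 in supine.

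The assembly chaperones Psmg1 to Psmg4, which build the alpha ring before the core closes, were all below the control mean in both positions. Psmg3 read 9.22 and 9.04 in controls, 8.87, 8.06 and 7.89 in prone, and 9.36, 8.34 and 8.19 in supine lungs. Supine 1 exceeded the controls and the other 5 ventilated lungs lay below them, with differences of -0.86 ± 0.46 in prone (adjusted p = 0.382) and -0.50 ± 0.46 in supine (adjusted p = 0.606). On Psmg4 too, prone 1 and supine 1 were at or above the controls and the others below. It stood at -0.72 ± 0.53 in prone (adjusted p = 0.520) and -0.43 in supine, Psmg2 at -0.72 and -0.46, and Psmg1 at -0.39 and -0.20. The median of the 4 was -0.72 in prone and -0.44 in supine, and it stayed negative under both other scalings. Pomp, the chaperone of beta ring assembly outside this gene series, was split by replicate as well: it read 12.12 and 12.16 in controls, 12.70, 11.80 and 11.75 in prone, and 12.73, 11.81 and 11.60 in supine lungs.

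**Figure D3:**
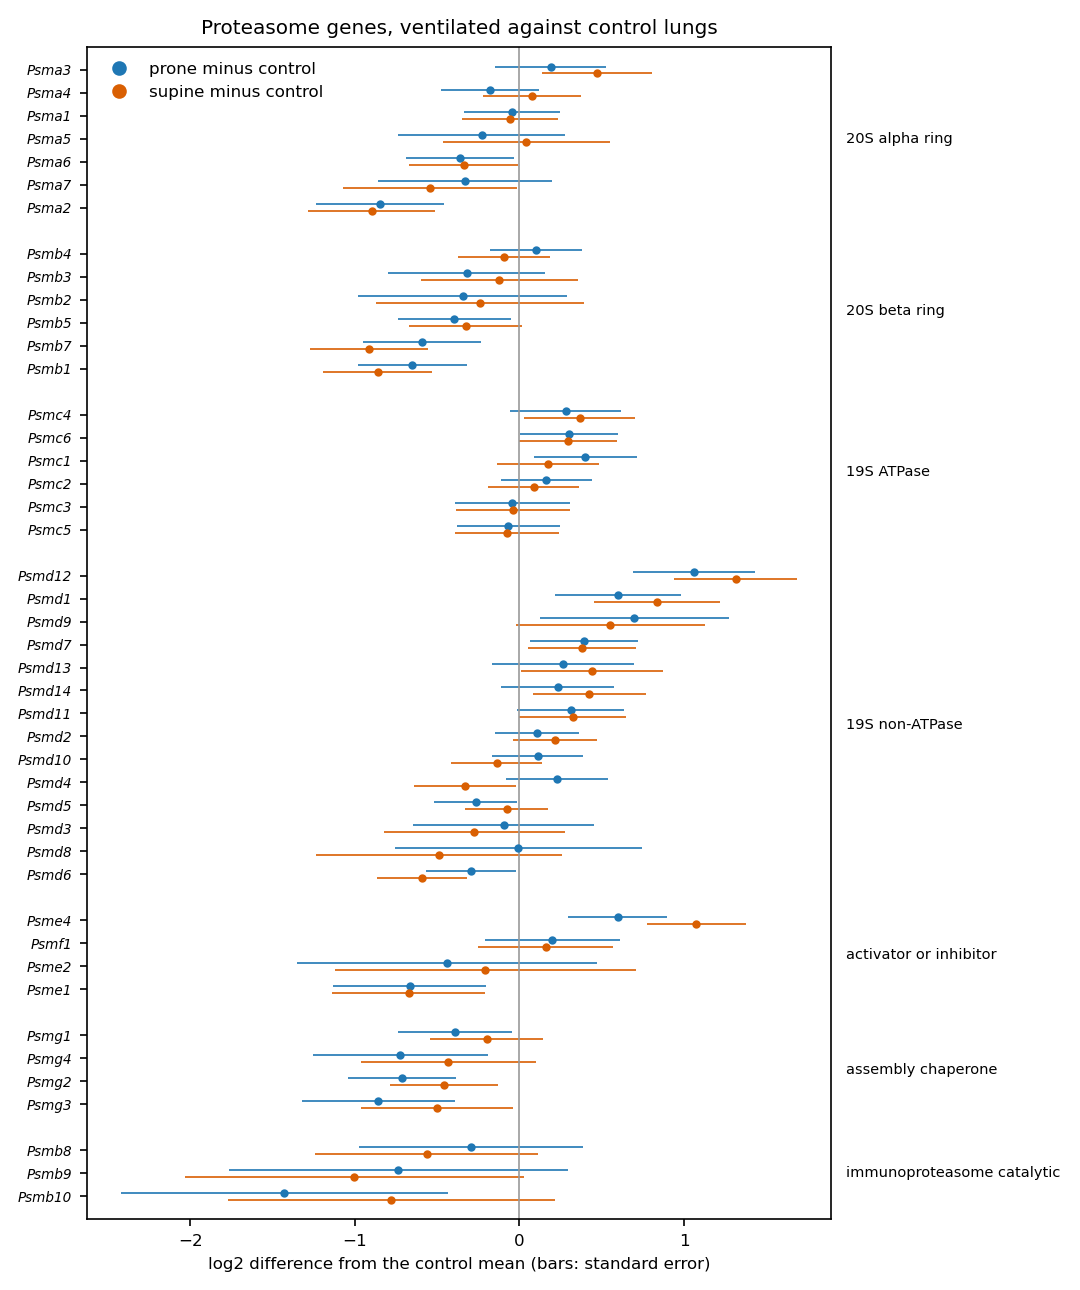
Log2 difference from the control mean in prone (blue) and supine (orange) lungs for each subunit, activator and chaperone gene, grouped by role, with the model's standard error as bars. Psmd12 lies farthest right, at 1.06 and 1.31, and Psmb10 farthest left in prone, at -1.43.

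The counts for the constitutive group are set against those for all genes. In prone lungs limma called 0 of the 41 genes (0.0391% of the tested genes were called). At an unadjusted p under 0.05, 1 was higher, Psmd12, and 0 were lower, where 6.36% of all tested genes were higher and 10.7% lower. The prone values of 10 genes lay above both controls and of 9 below both, against 18.6% and 29.0% of all genes. The group's median difference was -0.05 beside -0.15 for all tested genes, with 18 genes above 0 and 23 below. After centring on array medians the all-gene median became -0.01, and 23 of the 41 lay above 0.

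In supine lungs 0 of the 41 were called (0.0391% of all genes). At an unadjusted p under 0.05, Psmd12 and Psme4 were higher and Psmb1 and Psmb7 lower, where 6.48% of all genes were higher and 7.86% lower. Values of 6 genes lay above both controls and of 4 below both, against 19.4% and 22.9%. The median was -0.08 beside -0.07 for all genes, with 17 genes above 0 and 24 below.

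Over both positions 0 were called (0.117% of all genes), and the unadjusted test found the same pair higher as in supine and Psma2, Psmb1 and Psmb7 lower, where 7.52% of all genes were higher and 11.0% lower. All 6 ventilated values lay above both controls for 5 genes and below both for 4, against 11.9% and 17.8%. The median was -0.05 beside -0.12 for all genes. With the replicate number as a block, medians for the 41 genes were 0.08 in prone, 0.05 in supine and 0.06 over both, and limma called 0 of the 16896 probe sets in each, where it called 9, 9 and 24 without the block. At an unadjusted p under 0.05 the block left 0, 1 and 0 of the 41 lower, against 10.7%, 8.15% and 10.6% of all genes, and 2, 2 and 3 higher, against 6.82%, 7.70% and 8.09%. Those higher were Psmd12 and Psmd9 in prone, Psmd12 and Psme4 in supine, and all of these over both. The gene lower in supine was Psmb7.

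No difference between body positions was detected for a proteasome gene, the immunoproteasome genes included, with this number of arrays. Between supine and prone 0 of the 41 genes were called (0% of all genes) and 0 reached an unadjusted p under 0.05, where 2.33% of all genes were higher and 1.11% lower in supine. The groups did not overlap for 1 gene higher, Psmd5, and 1 lower, Psmd6, against 3.58% and 1.94%. Among the 41 genes the largest positive differences were those of Psme4 (0.48 ± 0.27), Psmg3 (0.36 ± 0.41) and Psmg4 (0.29 ± 0.48), and the largest negative ones those of Psmd4 (-0.56 ± 0.28), Psmd8 (-0.48 ± 0.67) and Psmb7 (-0.32 ± 0.32), with adjusted p-values from 0.942 to 0.960. Psmd4 read 10.66, 10.12 and 10.47 in prone and 10.18, 9.72 and 9.67 in supine lungs, so the positions overlapped. Within replicate numbers 1 to 3, supine minus prone was -0.47, -0.40 and -0.80 for Psmd4 and 0.44, 0.63 and 0.36 for Psme4. Psmg3, Psmg4 and Psmb7 also kept their sign across the numbers, and Psmd8 did not. These genes were picked by the mean of the same differences, so shared signs are partly built in and are no support. The other probe sets of Psme4 gave 0.21 and -0.75 in supine against prone. In limma with the replicate block Psmd4 stood at -0.56 ± 0.26 (adjusted p = 0.679).

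The names-only pair, kept apart from the subunits, did not share a direction by group means. Psmc3ip read 7.54 and 7.40 in controls and lay between 6.12 and 6.91 in prone and 3.42 and 7.29 in supine lungs, with differences of -0.90 ± 1.06 and -1.56 ± 1.06 (adjusted p = 0.694 and 0.494). Every ventilated value of Psmc3ip lay below both controls, and 3.42 was read on supine 3, the array with the large 3′ excess. Supine 1 and 2 read 7.01 and 7.29. Psme3ip1 stood at 0.03 in prone and 0.16 in supine.

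Interferon genes followed the replicates in the same direction as the immunoproteasome. Of 21 interferon signalling and target genes tested, 0 passed the adjusted threshold in limma in any comparison and 0 an unadjusted p under 0.05. At that unadjusted p, 6.36% of all tested genes were higher and 10.7% lower in prone, and 6.48% and 7.86% in supine. The median of the interferon genes stood 1.69 above the control mean on prone 1 and 1.47 on supine 1. It lay between -0.63 and -0.01 on the other 4 ventilated arrays. The chemokine gene Cxcl10 read 5.99 and 4.10 in controls, 11.23, 3.03 and 3.08 in prone, and 10.20, 5.56 and 5.66 in supine lungs. The guanylate-binding protein gene Gbp2 read 11.03 and 10.49 in controls, 13.84, 9.50 and 10.19 in prone, and 13.12, 10.89 and 10.43 in supine lungs. In both, the replicates numbered 1 stood apart from all other lungs.

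By group means the largest positive difference was that of Cxcl9 in prone and over both, and that of Cxcl10 in supine (2.09) and in supine against prone (1.35). Cxcl9 read 9.97 on prone 1 and 7.86 on supine 1. On all other arrays it read between 2.75 and 3.13 and cannot be separated from background. Nor can the Cxcl10 values of 3.03 and 3.08 on prone 2 and 3, which enter its supine against prone difference. Cxcl9 and Cxcl11 passed the filter on low values only through prone 1 and supine 1, so they are no separate support for the split. Mx1, an antiviral GTPase gene, stood lowest in prone (-2.09), in supine (-0.90) and over both (-1.5), and Irf8 in supine against prone (-1.07).

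Of the 9 genes of MHC class I peptide processing tested, 0 passed the adjusted or the unadjusted threshold. The shares of all tested genes are those given for the interferon genes. Tap1, which faces Psmb9 across their shared upstream region, read 9.47 and 9.22 in controls, 11.52, 9.09 and 9.26 in prone, and 10.35, 9.36 and 7.62 in supine lungs. It was highest on both replicates numbered 1 and lowest on supine 3. Tapbp, the tapasin gene, had the largest negative difference, at -0.81 in prone, -0.79 in supine and -0.80 over both. Nlrc5, an activator of class I genes, had the largest positive one, at 1.18, 1.94 and 1.56, from values that were under 4 on 5 of the 8 arrays. Nlrc5 passed the filter on low values only through prone 1, supine 1 and supine 3. Between positions, Nlrc5 (0.75) and Pdia3 (-0.93) were the extremes.

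Of 21 further proteasome assembly factors, regulators, deubiquitinases and shuttle factors tested, 0 passed the adjusted threshold. At an unadjusted p under 0.05, 2 were higher in prone, 2 in supine and 2 over both, with 0 lower. Of all tested genes 6.36%, 6.48% and 7.52% were higher and 10.7%, 7.86% and 11.0% lower. Between positions 1 was lower in supine than in prone, where 1.11% of all genes were lower. Zfand2a, a stress-induced partner of the 19S cap, read 7.78 and 7.95 in controls, 12.13, 13.47 and 13.62 in prone, and 10.47, 9.62 and 13.69 in supine lungs. It was higher in every ventilated lung, whatever its number, by 5.20 ± 1.11 in prone (adjusted p = 0.108), 3.39 ± 1.11 in supine (adjusted p = 0.262) and 4.30 ± 0.99 over both (adjusted p = 0.111).

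Txnl1, a thioredoxin that sits on the cap, read 12.38 and 12.40 in controls and at least 12.79 in every ventilated lung, at 0.67 ± 0.32 in prone and 0.86 ± 0.32 in supine (adjusted p = 0.328 and 0.293). The ubiquitin shuttle gene Ubqln1 stood at 1.07 ± 0.33 in prone (adjusted p = 0.178) and 0.30 ± 0.33 in supine. It was the gene lower in supine than in prone at an unadjusted p under 0.05, at -0.77 ± 0.30 (unadjusted p = 0.0352, adjusted p = 0.942), and these groups did not overlap. The lowest of the list was Sem1, a cap subunit, in prone (-0.56). In supine (-1.98), over both (-1.01) and between positions (-1.94) it was Nfe2l1, a transcription factor of proteasome genes, which read 6.83 on supine 3 against 9.72 to 11.24 elsewhere. Between positions Adrm1 (0.36) stood highest. Of the ubiquitin list, Uba1 and Uba6 could be read; Uba6 stood at -1.58 ± 0.48 in prone (adjusted p = 0.171).

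Markers of immune cells also differed between the replicates. Of 12 lymphocyte markers, 0 were called. At an unadjusted p under 0.05, 8 were lower in prone and 4 in supine, where 10.7% and 7.86% of all tested genes were lower. Their summed level, as log2, was 13.83 and 12.94 in controls, 12.62, 12.38 and 11.83 in prone and 12.98, 12.69 and 12.27 in supine lungs. By this sum replicate 1 was the highest of its position here too, though prone 1, high for Psmb8 to Psmb10, lay below both controls. By the median of the markers from the control mean, prone 1 (-1.91) lay below prone 2 (-1.23) and above prone 3 (-3.32). The 9 neutrophil markers summed to 13.87 and 14.03 in controls, 15.04 to 17.05 in prone and 15.25 to 16.89 in supine lungs. By group means 8 of them lay above the controls in both positions, and Fcgr3a lay below (-2.21 in prone, -1.64 in supine). By their sum prone 1 (17.05) and supine 1 (16.89) were highest. The 8 macrophage and monocyte markers summed to 12.93 and 13.11 in controls, 12.16 to 14.32 in prone and 13.07 to 14.33 in supine lungs, and these replicates were again highest. All 6 ventilated lungs read lower than either control for 4 of 9 epithelium and endothelium markers and for 4 of 6 mesothelium markers. Of all tested genes 17.8% did so. The medians of 6 mesothelium markers lay between -3.53 and -1.28 from the control mean on the ventilated arrays, and 1 of them, Bnc1, was called in prone (-3.72 ± 0.28, adjusted p = 0.0172) and in supine (-3.79 ± 0.28, adjusted p = 0.0164). Its ventilated values, at most 3.11, cannot be separated from background. Bnc1 passed the filter on low values only through the controls, so its call is no separate support for a fall. The type 1 cell genes Aqp5 (-1.34 in prone and -1.70 in supine) and Ager (-0.62 and -0.85) did not pass, but no ventilated lung reached the controls. Aqp5 stood lowest of the epithelium and endothelium list and Sftpd highest, at 0.04 in prone and -0.12 in supine. The part of these cell markers in the levels of the proteasome genes was not tested.

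**Figure D4:**
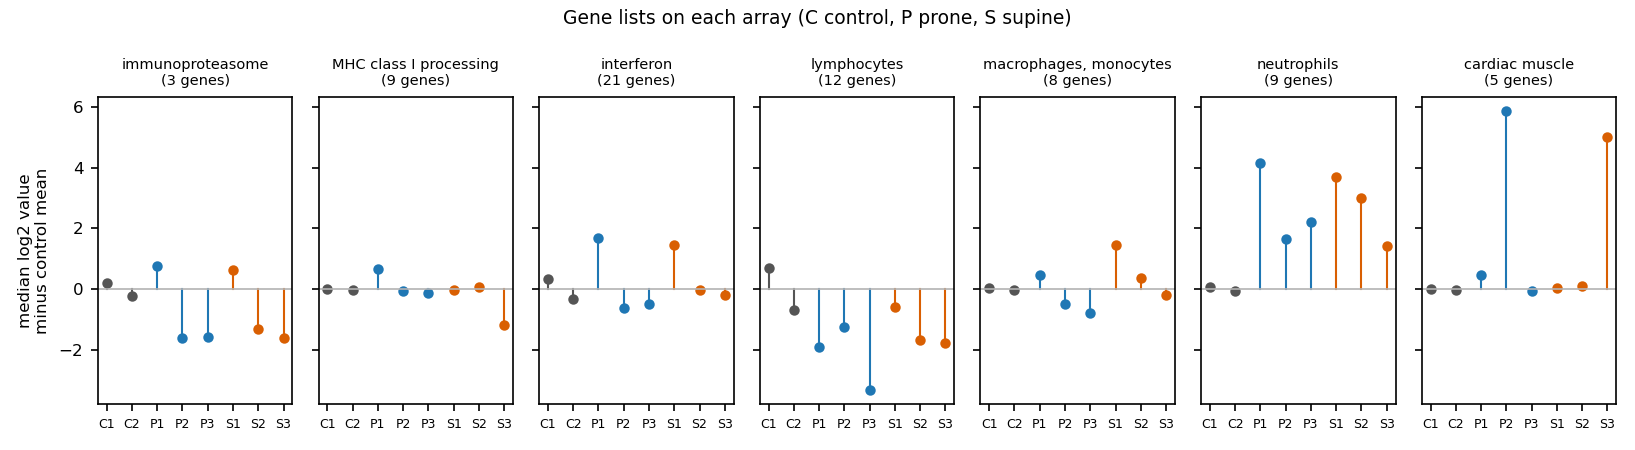
Median log2 value minus the control mean on each of the 8 arrays for the immunoproteasome genes and for lists of MHC class I, interferon and cell type marker genes. The interferon list peaks on prone 1 (1.69) and supine 1 (1.47), as do the immunoproteasome genes (0.76 and 0.62), while lymphocyte markers stand at -1.91 and -0.60 there.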

How the data were processed

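Lung RNA from 8 rats was labelled from 300 ng per sample and hybridised to 1-colour Affymetrix arrays. Per the submitters' processing notes the authors summarised probe sets with GCRMA and used Partek 6.5. From their range, the values the authors deposited are log2. Low values cannot be separated from background, and the number of arrays limits precision. Of 20242 probe sets, 28 controls were set aside and 16896 at log2 5 or above on at least 2 arrays were tested. Symbols came from GEO's platform annotation, with all 46 gene identifiers found in RefSeq. The 8 arrays entered 1 linear model of group means (limma 3.58.1, R 4.3.3; lmFit, contrasts, eBayes), two-sided, with Benjamini-Hochberg adjustment over all tested probe sets of a comparison and a threshold of 0.05. Comparisons of prone and of supine with control share the 2 controls. Errors after ± are model standard errors unless SD is stated. "Over both" is the mean of prone and supine minus control.

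Samples of 1 replicate number deviated together in all 7 same-number pairs (r from 0.109 to 0.721 across probe sets, all above 0.1; pairs of different number ran from -0.591 to 0.404, the highest being prone 3 with supine 2), so the number was treated as pairing the samples; the labels do not say what it marks. A fit with it as a replicate block was run, besides other filters, scalings, an intensity trend, the groups compared alone, the mean of a gene's probe sets and each array left out. Only the model of group means, for prone against control, was tested on simulated data, whose noise was independent between arrays. The replicate block was not simulated.

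The members and gene lists were chosen with earlier results of these data known. The text gives every gene of the rule, values on every array for the immunoproteasome genes, their counterparts and PA28, the 3 largest differences in each direction per comparison, and the extremes of the assembly, ubiquitin, MHC class I and interferon lists; marker lists are given by counts and summed levels. Genes named beyond that rule, and the choice of further genes to show array by array, were added after their values were seen.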

Additional observations from a re-analysis of the deposited data

How the results depend on the processing

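The immunoproteasome genes and those with the 3 largest differences in each direction, 14 genes in 36 pairs of gene and comparison, gave 639 values over all alternatives, of which 12 passed the adjusted threshold and 13 changed sign. All 12 came from refits, added after the values were seen, that leave out arrays standing apart, which lowers the spread within groups by construction. Without prone 1 and supine 1, Psmb10 was called at -2.36 in prone and -1.93 over both positions, where 3.69% and 1.81% of all genes were called. Without supine 3 as well, Psmb10 was called at -2.36 and -1.87 and Psmb9 at -1.59 and -1.45, and of all 41 constitutive genes 8 were called in prone (19.5%: Psma2, Psmb1, Psmb2, Psmd12, Psme1, Psme2, Psmg3 and Psmg4; 24.2% of all genes) and 4 over both (9.76%: Psma2, Psmb1, Psmg3 and Psmg4; 10.7% of all genes). Under all other settings, the replicate block included, limma called 0 of the constitutive and immunoproteasome genes.

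Signs changed without a test passing. When single replicates were left out, Psmb8 ran from -0.82 to 0.091 in prone against control, and in supine against prone it ran from -0.79 to 0.25, Psmb9 from -1.08 to 0.59, Psmb10 from -0.065 to 1.58, Psmg3 from -0.010 to 0.66, Psmg4 from -0.16 to 0.65 and Psmd8 from -0.95 to 0.29. With prone 1, supine 1 and supine 3 left out, Psmb9 stood at 0.30 and Psmd8 at 0.51 in that comparison, and the mean of Psme4's probe sets gave -0.022. Medians of the 41 constitutive genes stayed within -0.27 to 0.10 in prone, -0.24 to 0.07 in supine, -0.19 to 0.06 over both and -0.16 to 0.20 between positions, so their sign was not settled; under the replicate block, the paired fit, they were 0.08, 0.05, 0.06 and 0.01. Probe sets called ran from 0 to 4324 in prone, 0 to 153 in supine, 0 to 2023 over both and 0 to 3 between positions, against 9, 9, 24 and 0. Over both positions the fit to the compared groups alone gives no separate value, since it uses all 8 arrays.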
